A study of Mus musculus with 9 samples.

Results

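Sox2 binding sites listed for mouse lung epithelial cells with ectopic Sox2 expression and deletion of Nkx2-1 were set beside those listed for wildtype cells. All regions of both lists were taken, 2551 from the deleted library and 545 from the wildtype library, which makes 3096 of the 3324 regions listed in the series. Regions were matched where they overlapped by at least 1 bp. Both libraries came from C57BL/6 animals of 8 weeks and were precipitated with the same goat antibody to Sox2. The deleted library, as it is called here, carries both the added Sox2 and the loss of Nkx2-1, and wildtype carries neither. Another Sox2 library, with ectopic Sox2 and intact Nkx2-1, serves only to say whether a region was also found there, with its fragments at a few sites. The labels name no driver, recombinase or sort, so which epithelial cells carried the changes, and how many animals were pooled, was not known. With 1 library per side nothing here has a replicate check, no p-value is given between conditions, and intervals are exact 95% intervals that cover counting error only. The effects of ectopic Sox2 and of Nkx2-1 deletion cannot be told apart in this comparison. A peak list holds no expression value, so neither the genotype nor the cell type could be checked against marker transcripts, and no summit lay within 50 kb of Sox2 or Nkx2-1 themselves in either list.

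Sox2 is a transcription factor of the high mobility group family that bends DNA and often binds beside a partner factor. In the foregut it marks the oesophagus and the conducting airway, where basal stem cells express it, while Nkx2-1 is the homeodomain factor that gives the lung its identity and drives surfactant genes in the alveoli. In ChIP-seq, DNA fragments bound by the factor pile up at its sites, and the peak caller MACS2 reports each pile as a region with a summit, a fold over local control and a q-value.

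Promoters that held a summit show the sites at base level. A RefSeq promoter window (GRCm38.p6, the build of the lists) runs from 250 bases before a transcription start to 50 bases after it. Of 32851 windows, 55 (0.167%) held a summit of the deleted library and 21 (0.0639%) a wildtype summit, with 5 in both sets, those of Nrarp, Mtf2, Dph1 and the predicted genes Gm51622 and Gm31674. The 8 windows printed here were chosen after their values were seen, to show sites found in both libraries, in the deleted library alone and in wildtype alone. Each is given 5′ to 3′ on the gene's own strand, and capitals mark the Sox cores ATTGT and CTTTGT and the octamer core ATGCAAA, the DNA letters read by Oct factors, on either strand. The first 3 held a summit in both libraries.
Nrarp: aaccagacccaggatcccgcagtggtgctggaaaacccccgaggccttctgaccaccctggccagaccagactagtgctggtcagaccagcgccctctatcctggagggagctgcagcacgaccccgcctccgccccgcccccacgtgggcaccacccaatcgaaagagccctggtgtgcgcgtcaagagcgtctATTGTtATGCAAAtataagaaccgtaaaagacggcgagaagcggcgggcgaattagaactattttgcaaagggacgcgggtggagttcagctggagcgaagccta
Mtf2: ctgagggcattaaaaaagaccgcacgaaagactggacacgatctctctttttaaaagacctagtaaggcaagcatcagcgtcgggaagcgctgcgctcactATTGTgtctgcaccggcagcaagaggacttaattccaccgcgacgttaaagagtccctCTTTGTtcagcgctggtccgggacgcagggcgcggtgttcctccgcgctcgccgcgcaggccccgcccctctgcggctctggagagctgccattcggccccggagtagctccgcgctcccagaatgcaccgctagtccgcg
Dph1: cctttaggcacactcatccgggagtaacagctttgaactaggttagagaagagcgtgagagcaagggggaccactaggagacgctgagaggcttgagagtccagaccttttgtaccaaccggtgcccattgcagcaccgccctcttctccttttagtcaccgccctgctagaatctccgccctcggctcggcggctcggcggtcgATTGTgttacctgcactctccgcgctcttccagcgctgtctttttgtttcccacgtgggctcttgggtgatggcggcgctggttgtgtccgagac
The next 3 held a summit in the deleted library and not in wildtype.
Cutal: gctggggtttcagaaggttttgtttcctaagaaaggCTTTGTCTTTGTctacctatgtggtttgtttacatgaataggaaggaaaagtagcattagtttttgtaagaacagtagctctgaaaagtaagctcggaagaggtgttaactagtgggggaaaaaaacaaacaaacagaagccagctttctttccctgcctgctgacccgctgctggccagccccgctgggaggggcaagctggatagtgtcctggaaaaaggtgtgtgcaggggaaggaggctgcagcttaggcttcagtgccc
Gpx2: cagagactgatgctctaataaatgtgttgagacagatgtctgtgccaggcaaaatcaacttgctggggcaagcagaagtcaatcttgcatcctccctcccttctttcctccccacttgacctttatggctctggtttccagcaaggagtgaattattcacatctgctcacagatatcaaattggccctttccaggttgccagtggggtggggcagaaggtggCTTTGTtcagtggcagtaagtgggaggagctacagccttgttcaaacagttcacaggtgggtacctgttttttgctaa
Sprr2a3: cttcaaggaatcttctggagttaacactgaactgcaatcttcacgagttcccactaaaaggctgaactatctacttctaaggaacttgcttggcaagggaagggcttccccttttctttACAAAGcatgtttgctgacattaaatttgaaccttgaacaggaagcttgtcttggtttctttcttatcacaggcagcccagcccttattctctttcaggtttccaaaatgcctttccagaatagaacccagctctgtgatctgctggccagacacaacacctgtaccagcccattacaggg
The last pair held a summit in wildtype and not in the deleted library.
Fmo2: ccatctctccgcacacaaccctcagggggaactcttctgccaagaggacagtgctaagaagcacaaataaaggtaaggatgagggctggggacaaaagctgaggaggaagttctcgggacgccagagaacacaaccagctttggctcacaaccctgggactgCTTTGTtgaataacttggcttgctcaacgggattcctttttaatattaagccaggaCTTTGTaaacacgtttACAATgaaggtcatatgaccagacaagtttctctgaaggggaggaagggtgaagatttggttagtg
Snrpb2: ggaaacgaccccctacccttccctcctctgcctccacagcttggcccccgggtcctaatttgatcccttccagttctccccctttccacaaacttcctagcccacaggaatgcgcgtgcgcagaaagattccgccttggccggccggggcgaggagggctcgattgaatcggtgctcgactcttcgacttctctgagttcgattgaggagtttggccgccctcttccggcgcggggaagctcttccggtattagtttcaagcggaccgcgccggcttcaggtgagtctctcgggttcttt

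Nrarp, a feedback inhibitor of Notch signalling, has the window chr2:25180508-25180807 on the plus strand. Its summits fell on base 211 of the printed window in the deleted library and base 183 in wildtype, on either side of the run ATTGTTATGCAAA at bases 196 to 208. That run is a Sox core and an octamer core with 1 base between them, the spacing known from Sox2 and Oct4 target genes in embryonic stem cells. Written as ATTGTNATGCAAA and searched on both strands, it was present in 8 windows of 32851 (0.0244%), and the other 7 belong to Nanog, Exoc1, Pipox, Gm38966 and Gm34201, none with a summit in either library. The search for this run was added after the Nrarp sequence had been read. At Mtf2, a polycomb accessory protein, the wildtype summit at base 162 lay within the CTTTGT at bases 160 to 165 of chr5:108065424-108065723 (plus strand), and the deleted-library summit lay at base 139. Dph1, an enzyme of diphthamide synthesis, had both summits, at bases 209 and 206, within the ATTGT at bases 206 to 210 of chr11:75190434-75190733 (minus strand).

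Among windows with a summit in the deleted library and not in wildtype, Cutal (chr2:34874146-34874445, plus strand) held 70 fragments at base 14, ahead of a CTTTGT repeated back to back at bases 37 to 48. Gpx2, a glutathione peroxidase of epithelia, held 44 fragments at base 230 of chr12:76795505-76795804 (minus strand), next to a CTTTGT that ends at base 228. Summits also lay in the windows of 3 small proline-rich genes of the cornified envelope, the cross-linked shell of squamous cells, with 69 fragments at Sprr2a1, 57 at Sprr2a2 and 71 at Sprr2a3 (chr3:92285054-92285353, plus strand). The ectopic Sox2 list also held a summit in the Sprr2a1 window, with 20 fragments. The Sprr2a1 and Sprr2a2 windows are identical over all 300 bases, so reads from these copies cannot be told apart and the 3 counts are uncertain. Crnn, which encodes cornulin of the oesophagus and other squamous epithelia, held 21 fragments 15 bp before its start, and its window has none of the Sox cores searched. Among wildtype windows, Fmo2, a flavin monooxygenase of the lung, held 34 fragments at base 244 of chr1:162898444-162898743 (minus strand), close to the ACAAT at bases 235 to 239. Snrpb2, a spliceosomal protein, held 50 fragments in wildtype and 48 in the ectopic Sox2 library at chr2:143062819-143063118 (plus strand), in a window with no Sox core.

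Over whole sets, 2 Sox cores (CATTGT and CTTTGT, both strands) were counted in each window. Either core was present in 27 of 55 deleted-library windows, 49.1% (interval 35.4 to 62.9), in 7 of 21 wildtype windows, 33.3% (14.6 to 57.0), and in 28.6% of all windows. The AP-1 motif TGANTCA, read by the Jun and Fos factors, was present in 14 of 55 deleted-library windows (25.5%), 2 of 21 wildtype windows (9.52%) and 7.81% of all windows. CTCAAG, a core of Nkx2-1 sites, was in 8 deleted-library windows (14.5%) and 2 wildtype windows (9.52%), beside 15.9% of all, and the TEAD core CATTCC was in 7 (12.7%) and 4 (19%), beside 14.7% of all. The 2 sets also differed in base composition, with a median GC content of 49.3% in deleted-library windows, 59.7% in wildtype windows and 52.7% in all, and the part of GC content in the motif shares was not tested. Within 50 bp of the summit, where the window held the whole stretch, a Sox core was present in 13 of 43 deleted-library stretches (30.2%) and 4 of 15 wildtype stretches (26.7%), against 10.9% of all stretches of 101 bases in all windows. The shorter Sox core ATTGT, which CATTGT contains and which was searched only after the Nrarp sequence had been read, was in 26 deleted-library windows (47.3%), 8 wildtype windows (38.1%) and 31.0% of all, and all 5 windows with a summit in both libraries had it. The octamer core ATGCAAA, added with it, was in 4 deleted-library windows (7.27%), 3 wildtype windows (14.3%) and 4.63% of all. Some windows overlap and share a summit, and the shares and intervals count each of them separately. The 2 wildtype AP-1 windows, of Rpl22 and 9430083M05Rik, hold the same match. Of the 4 wildtype TEAD windows, 2 are overlapping windows of Gm38424 with the same match. Ipo8 and 2610017A05Rik share a CTCAAG match, and the Sox cores of Sprr2a1, Sprr2a2 and Sprr2a3 lie in copies of the same sequence. A match is a run of letters and was not shown to be the bound site.

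MicroRNA hairpins were read the same way. Of 1005 hairpins in the RefSeq table (GRCm38.p6), 23 (2.29%) had a deleted-library summit within 10 kb and 6 (0.597%) a wildtype summit. The window was chosen after the data were seen, and several hairpins of the set are little studied. The sequences shown belong to well-known miRNAs near a deleted-library summit alone and to 1 near a summit in both libraries, written 5′ to 3′ with the seed (bases 2 to 8) in capitals.
miR-21a-5p: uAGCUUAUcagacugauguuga
miR-135b-3p: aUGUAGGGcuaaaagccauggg
miR-125b-5p: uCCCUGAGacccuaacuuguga
miR-190a-5p: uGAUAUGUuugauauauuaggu
miR-6391: uGAGGCACgggaggacaaugu
No 2 of these seeds are the same. Mir21a, a miRNA abundant in many epithelial tumours, had a region at chr11:86586836-86587514 with summits of 42 and 41 fragments, 2.78 and 3.10 kb from the hairpin. Mir135b had 85 fragments 2.88 kb away, at a site that the ectopic Sox2 list also holds. Mir125b-1, a relative of the earliest miRNAs found in worms, had 57 fragments 7.34 kb away, and Mir190a 41 fragments 4.89 kb away. Mir6391, which lies within the span of Abcc4, had 82 fragments in the deleted library and 27 in wildtype at the same region, 2.88 kb from the hairpin, a depth-scaled ratio of 2.02 (interval 1.29 to 3.24). Mir6933 had 80 and 37 fragments at a shared region and Mir1952 77 and 41.

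In all, promoters included, the deleted library listed 2589 summits and wildtype 552. The depth recovered from the lists was 1.45 fragments per position in the deleted library and 0.964 in wildtype, a ratio of 1.51, and a summit rested on a median of 38 fragments (range 15 to 146) against 24 (10 to 71). MACS2 scaled the ChIP fragments of each library to its control, so the listed p-values of the 2 lists do not rest on the same depth. The part of depth in the difference in list length was not tested.

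The lists shared 270 regions, each with a single partner. They made up 10.6% of the deleted-library regions (interval 9.42 to 11.8) and 49.5% of the wildtype regions (45.3 to 53.8). Shared regions were the stronger ones in the deleted library, with a median of 53 fragments and a −log10 q of 8.67, against 37 fragments and 5.71 for the 2281 regions without a partner. In wildtype the 2 kinds were closer, with 26 fragments and a −log10 q of 5.91 for shared regions against 21 and 5.47 for the 275 others. Ordered by −log10 q, the overlap in the deleted library was 30.1% (24.5 to 36.1) in the first of 10 equal bins, 16.9% in the next and 6.67% in the last. In the wildtype bins it lay between 61.8% and 40.0%, and their intervals overlapped. Of the 50 highest regions by q, 27 were shared in the deleted library and 29 in wildtype.

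**Figure D1:**
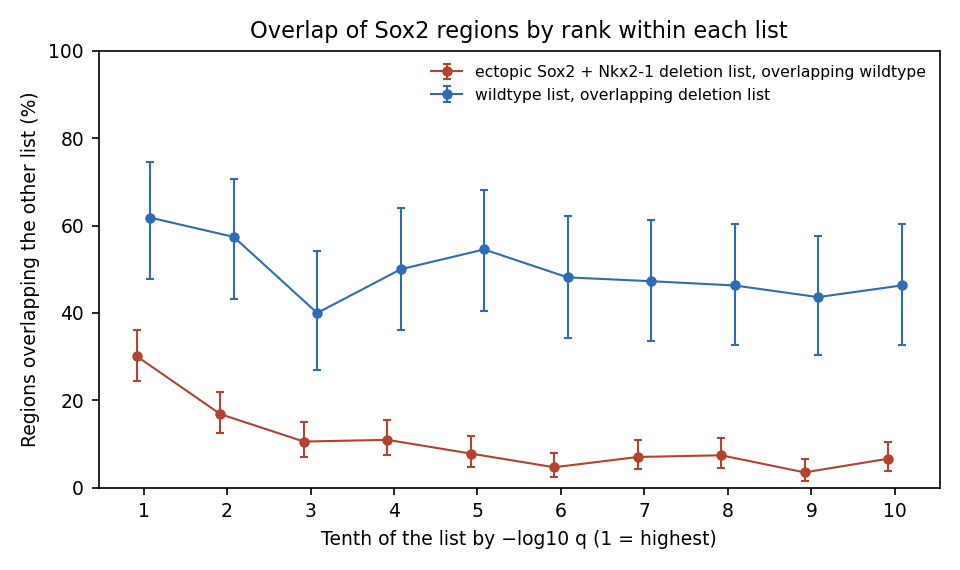
Share of regions (vertical axis, percent) that overlap the other list, in 10 equal bins of each list ordered by −log10 q (horizontal axis, 1 highest), with a point for each bin and bars for exact binomial 95% intervals. The deleted-library share is 30.1% in the highest bin and 6.67% in the lowest, and the wildtype share stays between 40.0% and 61.8%.

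The ectopic Sox2 list, from cells that kept Nkx2-1, held a region at 62 of the 270 shared regions, 23.0% (18.1 to 28.4). It held one at 38 of the 275 wildtype regions without a partner, 13.8% (9.97 to 18.5), and at 56 of the 2281 deleted-library regions without a partner, 2.46% (1.86 to 3.18). The ectopic Sox2 list holds 228 regions in all, at a depth of 0.763 fragments per position, so its share of the 2281 was limited by list length and these shares are not compared.

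At shared regions the fragments at the summit were compared after dividing by the depth ratio. The median ratio of deleted to wildtype was 1.33 (quartiles 1.09 and 1.69, range 0.466 to 3.32), with 219 regions above 1 and 51 below. A ratio of at least 2 was found at 35 of the 270 regions (13%), and a value at least 2-fold lower at 1 region (0.37%). Binding in more cells, more binding per cell and a technical difference between the 2 libraries cannot be told apart in such bulk chromatin. The counting interval lay above 1 at 84 regions, below 1 at 3 and included 1 at 183. The sites themselves coincided, with summits a median of 25 bp apart, 209 within 50 bp and 259 within 100 bp. Across these 270 regions, which share the same 2 libraries, log2 fragments gave a Pearson r of 0.63 and Spearman rho of 0.598. The authors' fold, which each list scales to its own control, was higher in the deleted library at 152 of the 270.

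**Figure D2:**
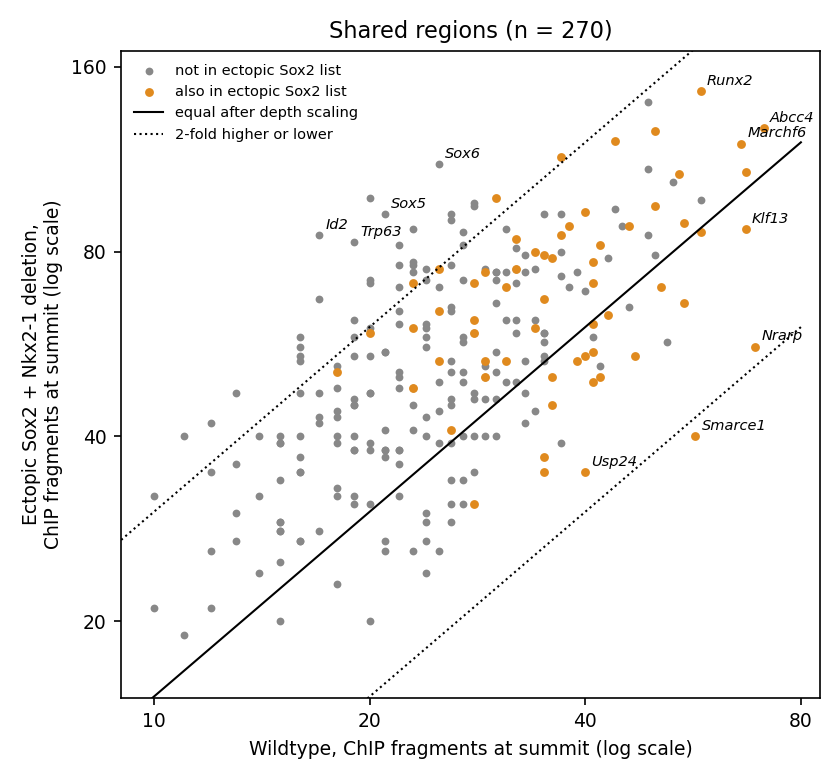
ChIP fragments at the summit of each of the 270 shared regions, wildtype on the horizontal and deleted library on the vertical axis (both log scales), coloured by whether the ectopic Sox2 list also holds the region. The solid line marks equal values after depth scaling and the dotted lines a 2-fold difference, and 219 points lie above the solid line.

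Among the highest ratios, 3 lay inside a transcription factor gene (Sox6, Sox5 and Trp63). The highest ratio inside any gene was 3.25, above these 3, at a region not reported here. The highest ratio was at chr12:25181451-25181793, farther than 50 kb from any protein-coding gene. It lay 85520 bp from Id2, an inhibitor of basic helix-loop-helix factors that marks the growing lung tip. This region held 85 fragments in the deleted library and 17 in wildtype, a depth-scaled ratio of 3.32 (interval 1.96 to 5.96). Inside Sox6, a Sox factor without an activation domain of its own, chr7:115732859-115733261 held 111 and 25 fragments, a ratio of 2.95 (1.90 to 4.75). Sox5, its close relative, held 92 and 21 at chr6:144021724-144022028, a ratio of 2.91 (1.79 to 4.92), and had the highest fold of the deleted-library list, 19.97. Trp63, whose product p63 sets basal and squamous identity, held 83 and 19 fragments inside the gene at chr16:25780113-25780525, a ratio of 2.90 (1.74 to 5.05). The wildtype call at Trp63 was weak, with a fold of 3.77 and a −log10 q of 2.09, so at a −log10 q of 5 in both lists it is not shared. None of these 4 regions was in the ectopic Sox2 list, which held 23.0% of all shared regions. They were picked from the highest ratios, so the values describe these libraries and test nothing.

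In the other direction, 3 regions had a counting interval wholly below 1. Near Smarce1, a subunit of the SWI/SNF chromatin remodeller, chr11:99200153-99200352 held 40 fragments in the deleted library and 57 in wildtype, a ratio of 0.466 (0.303 to 0.71). Nrarp held 56 and 69 fragments at the composite run printed above, a ratio of 0.538 (0.372 to 0.777), and 42 in the ectopic Sox2 library. The third, 122159 bp from the deubiquitinase gene Usp24, held 35 and 40 fragments, a ratio of 0.581 (0.358 to 0.937). All 3 were also in the ectopic Sox2 list, which held 23.0% of all shared regions. The next lowest, inside Ctnna2, a neuronal catenin gene, and near Twsg1, a Bmp modulator, each had equal fragments in both libraries (24 and 24, 20 and 20) and a ratio of 0.664 whose interval included 1. Shared regions at gene ends, no more than 1 kb from the start or the end of a gene span, numbered 8. Their median ratio was 0.947 (range of single regions 0.538 to 2.11), while the 122 inside genes had a median of 1.44 (range 0.664 to 3.25). The 62 shared regions also in the ectopic Sox2 list had a median ratio of 1.25, with 3 at 2 or more, and the 208 others had 1.4, with 32.

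By summed −log10 q, the 12 strongest shared regions ranged in ratio from 0.538 to 2.91. Klf13, a Krüppel-like factor gene, led with 87 fragments in the deleted library and 67 in wildtype 18325 bp from the gene, a ratio of 0.862 (0.619 to 1.2). Inside Abcc4, an efflux transporter gene, 127 and 71 fragments gave 1.19 (0.881 to 1.61), and inside Marchf6, a ubiquitin ligase gene, 120 and 66 gave 1.21 (0.886 to 1.65). Aspa, which encodes aspartoacylase, gave 1.07 (0.781 to 1.47), and Ctsl, the cathepsin L gene, 1.26 (0.886 to 1.81). All of these intervals include 1. Among the same 12 regions, higher values were found inside Runx2, the bone and cartilage regulator, with 146 and 58 fragments (1.67, interval 1.22 to 2.31), inside Ccm2, an endothelial scaffold gene, with 114 and 37 (2.04, 1.4 to 3.05), and 16128 bp from Anxa1, the annexin A1 gene, with 140 and 49 (1.90, 1.36 to 2.68). Sox5, Nrarp, Aldh8a1 and Gm2016 made up the 12, the last pair with ratios of 1.30 and 1.42 whose intervals include 1.

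Regions found in the deleted library alone were led, by the authors' fold, by one 188240 bp from Prdm1, the gene of a repressor that acts in terminal epidermal differentiation. It held 121 fragments at a fold of 17.4, which scale to 80.3 fragments at wildtype depth, and wildtype listed no region there. Dcbld2, a transmembrane receptor gene, followed at a fold of 15.8 with 58 fragments, and Tulp4 at 15.5 with 71. Tgm3, a transglutaminase of the cornified envelope, had a summit 58902 bp from the gene with 56 fragments and a fold of 15.3. The cell cycle phosphatase gene Cdc14b (75 fragments) and Btrc, which encodes the beta-TrCP ubiquitin ligase that degrades beta-catenin (82 fragments), held summits inside the gene at a fold of 14.9 each. Slc25a21, Pudp, Zdhhc25, Pik3c3, Txndc16 and Olfr488 completed the 12, with folds from 14.3 to 13.0 and 49 to 65 fragments. None of the 12 was in the ectopic Sox2 list, which held 2.46% of the 2281 deleted-library regions without a partner.

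The 275 regions of wildtype alone had lower leading folds. Ppp2r2b, a phosphatase subunit gene, and Cbl, a ubiquitin ligase gene of growth factor receptors, each held 33 fragments at a fold of 12.7, which scale to 49.7 fragments at the deleted library's depth. Tjp1, which encodes the tight junction protein ZO-1, held 36 fragments, also at 12.7. Meis1, a homeodomain factor gene, had 25 fragments 114392 bp away, and Nfib, a nuclear factor of lung maturation, 21 inside the gene. St3gal3, Fezf1, Peak1, Zfp362, Sucnr1, Immp2l and Chst11 completed the 12, with folds from 10.2 to 9.39. Of these, the region near Fezf1, a forebrain repressor gene, was also in the ectopic Sox2 list, which held 13.8% of the 275.

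Some genes gathered several summits. Sox6 had 9 inside the gene in the deleted library and 3 in wildtype, the most of any gene in the deleted list. Trp63 had 5 and 1 in a much shorter gene, 2.4 per 100 kb in the deleted library, and Myof, a membrane repair gene on chromosome 19, had 5 and 0 (3.46 per 100 kb). Ctnna2 had 6 and 2, and Rbms3, Exoc6b and Slc25a21 had 5 each in the deleted library with 2, 1 and 1 in wildtype. Abcc4 went the other way with 4 and 5, and Sox5 and Mipol1 had 3 in each. Of 21887 protein-coding genes, 967 had at least 1 deleted-library summit inside the gene and 222 a wildtype one. At least 2 summits lay inside 196 genes in the deleted library and 28 in wildtype. These counts also depend on how many summits a list holds. Regions of the deleted library also lay closer together, 285 of 2551 (11.2%) having a neighbour within 10 kb against 18 of 545 (3.30%) in wildtype, a share that depends on how many regions a list holds.

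By position, 46.9% of deleted-library summits (44.9 to 48.8) and 44.6% of wildtype summits (40.4 to 48.8) lay inside a protein-coding gene, away from its ends, where 36.7% of the annotated genome lies. Gene ends held 3.48% and 4.35%, beside 2.94% of the genome. Farther than 50 kb from any gene lay 22.9% of deleted-library summits (21.3 to 24.5) and 29.5% of wildtype summits (25.8 to 33.5), beside 37.4% of the genome. Within the deleted library, this far class held 31.9% (26.4 to 37.8) of shared summits and 21.8% (20.1 to 23.5) of the others. The median distance to a transcription start was 53.5 kb in the deleted library and 84.1 kb in wildtype.

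Genes of 22 fixed lists were then read against all 21887 protein-coding genes, of which 13.1% had a deleted-library summit within 50 kb, 2.85% a wildtype summit and 1.76% both. Because the deleted list is longer, a gene near a summit in the deleted library alone is common (11.4% of genes) and near one in wildtype alone rare (1.09%). Counts are given for each list beside these shares. No test was made of any list. A summit within 50 kb of a gene need not act on it and can lie inside another gene.

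**Figure D3:**
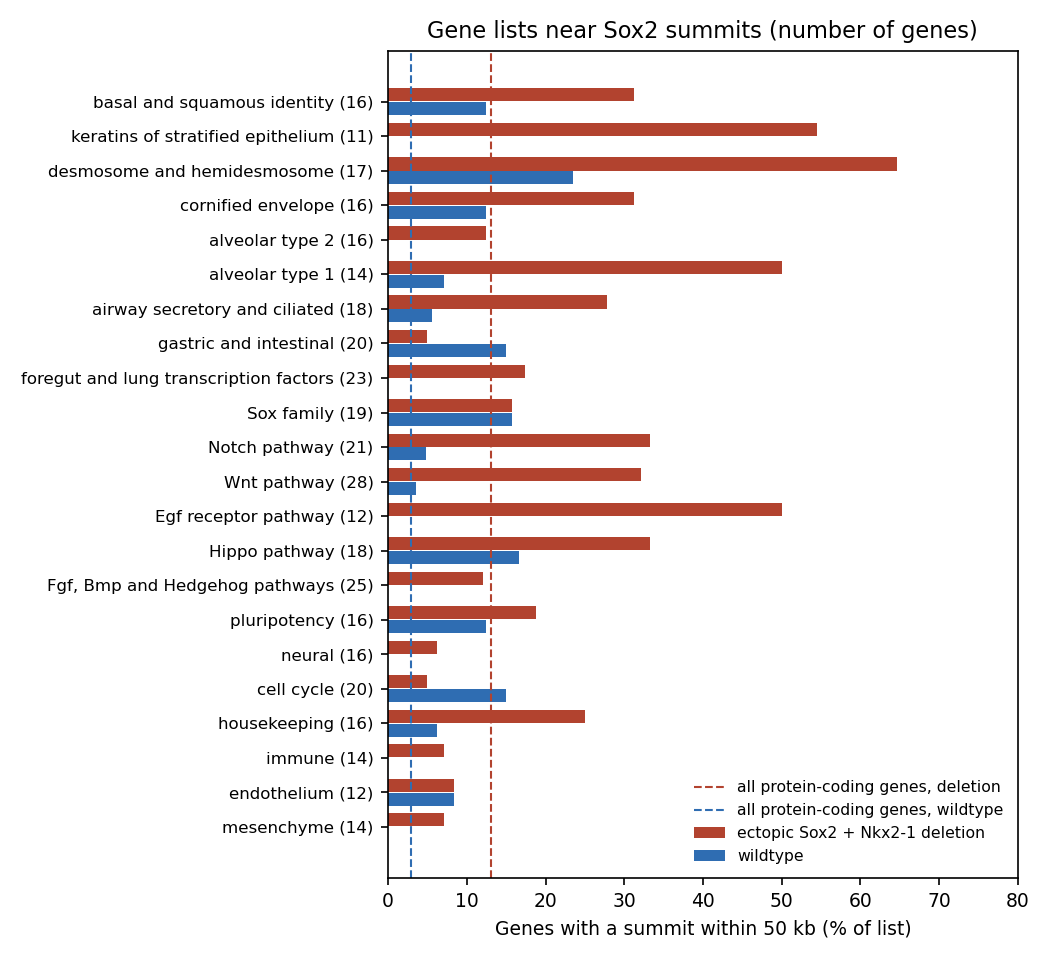
Share of each fixed gene list (vertical axis, list size in brackets) with a summit within 50 kb (horizontal axis, percent), in the deleted library (red bars) and wildtype (blue bars), with dashed lines at the shares of all protein-coding genes, 13.1% and 2.85%. The desmosome and hemidesmosome list has 11 of 17 genes in the deleted library and 4 in wildtype.

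Transcription factors of basal and squamous identity had 5 of 16 members near a deleted-library summit, 2 near a wildtype one and Trp63 alone near both. At a −log10 q of at least 5, 2 members remained in the deleted library and 1 in wildtype, beside 8.83% and 1.88% of all genes. Klf5, a factor of proliferating epithelium, held 66 fragments inside the gene at chr14:99305371-99305800 with no wildtype summit within 50 kb. The grainyhead factors Grhl1 and Grhl2, which maintain epithelial junctions, had best summits of 40 and 39 fragments at −log10 q of 3.86 and 2.37, below the all-gene median of 6.06. Sox21, a Sox factor of the airway and hair follicle, had 33 fragments in wildtype 2820 bp from the gene, and no deleted-library summit lay within 50 kb. The Sox family list, which also holds Sox15 and Sox21, had 3 of 19 members in each library, and 2, Sox5 and Sox6, in both.

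Desmosome and hemidesmosome genes, which hold stratified cells to each other and to the basement membrane, had 11 of 17 members near a deleted-library summit and 4 near a wildtype one, the 4 being in both sets. The 11 genes rested on 9 best summits, because Dsg2 and Dsg3 shared one and Dsc2 and Dsc3 another. Dsg3, the desmosomal cadherin of basal keratinocytes, held 59 fragments 183 bp from the gene at a −log10 q of 18.1, and wildtype had 26 fragments at a different site, 12299 bp from the gene. Dsc3 held 43 fragments inside the gene, with no wildtype summit within 50 kb. Near Perp, a desmosomal p63 target, a region 19354 bp away was listed in both with 34 and 15 fragments, a ratio of 1.5 (0.797 to 2.97). Its −log10 q was 1.38 in the deleted library, the lowest value of that list, and 2.23 in wildtype. Keratins of stratified epithelium had 6 of 11 members near a deleted-library summit and 0 in wildtype, but these were 2 summits. One, near Krt5, Krt6a and Krt6b, had 60 fragments, and one, near Krt13, Krt14 and Krt15, had 30 fragments at a −log10 q of 1.45. The ectopic Sox2 list also had a summit within 50 kb of Krt5, Krt6a and Krt6b. Requiring a −log10 q of 5 left 7 desmosomal genes and 0 keratins, beside 8.83% of all genes.

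Genes of the cornified envelope had 5 of 16 members near a deleted-library summit and 2 of them near a wildtype one. Within 10 kb it was 1 of 16 (6.25%) and 0, beside 6.47% of all genes in the deleted library. Anxa1 had 4 deleted-library summits and 2 in wildtype within 50 kb. S100a8, a calgranulin of inflamed epithelium, had 76 fragments in the deleted library and 21 in wildtype at different regions, 39596 and 30025 bp away. Ppl, the periplakin gene, had 43 fragments 13232 bp away in the deleted library alone, and Ivl, the involucrin gene, and Cnfn had weaker summits of 25 and 32 fragments.

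Among markers of alveolar cells, type 2 genes, which make surfactant, had 2 of 16 members near a deleted-library summit and 0 in wildtype, a share (12.5%) close to that of all genes. They were the lipid synthase gene Fasn, 38 fragments, and Il33, 61 fragments at a −log10 q of 2.84. Type 1 genes, of the flat gas-exchange cell, had 7 of 14 in the deleted library and 1 in wildtype. Ahnak, a giant scaffold gene on chromosome 19, had 6 deleted-library summits, the best with 91 fragments, and 0 in wildtype. Clic5, a chloride channel gene, had the same region in both libraries with 52 and 18 fragments, a ratio of 1.92 (1.10 to 3.48), 47375 bp from the gene. Gprc5a and Spock2 followed with 65 and 33 fragments in the deleted library alone. Within 10 kb, 2 of the 14 type 1 genes had a deleted-library summit, beside 6.47% of all genes.

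Airway secretory and ciliated genes had 5 of 18 members near a deleted-library summit and 1 in wildtype, and 3 of the 5, Scgb1a1, Aldh1a1 and Rfx3, lie on chromosome 19. Scgb1a1, the club cell secretoglobin, rested on the Ahnak summit, and Tubb4b, a tubulin of cilia, on the Nrarp summit. Rfx3, a regulator of ciliogenesis, held 46 fragments inside the gene. Gastric and intestinal genes, like cell cycle genes, had fewer members near a deleted-library summit than near a wildtype one, with 1 of 20 members in the deleted library and 3 in wildtype. The trefoil factors Tff1, Tff2 and Tff3 shared 1 wildtype summit of 22 fragments, and Krt20, an intestinal keratin, had 47 fragments in the deleted library. Foregut and lung transcription factors had 4 of 23 in the deleted library and 0 in wildtype. Irx2 had 39 fragments 20829 bp away, Foxa1, the pioneer factor of the foregut, 39 inside the gene, and Ehf, an epithelial Ets factor, 26 inside the gene.

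Signalling pathways were ordered by role. Among Notch genes, 7 of 21 had a deleted-library summit and 1, Nrarp, a wildtype one. Of the 7, Rfng rested on the Fasn summit, 14343 bp away. The ligand gene Dll1 had 43 fragments 3883 bp away, and the fringe gene Lfng, which tunes receptor glycosylation, 67 inside the gene. The coactivator gene Maml2 had 65 and the target gene Hes1 49. Dll1, Lfng, Maml2 and Hes1 had no wildtype summit within 50 kb, but the ectopic Sox2 list had one within 50 kb of Dll1. Among Wnt genes, 9 of 28 had a deleted-library summit and 1 a wildtype one. The ligand gene Wnt7a held 64 fragments inside the gene at a −log10 q of 20.2, and the receptor gene Fzd7 had 33. The coreceptor gene Lrp6 had 83 fragments at a −log10 q of 25.4, at a summit 42597 bp away inside another gene. Tcf7, a nuclear effector, was the member in both libraries, with 27 and 16 fragments at the same region and a ratio of 1.12 (0.582 to 2.22).

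Egf receptor pathway genes had 6 of 12 members near a deleted-library summit and 0 in wildtype. The ligand gene Tgfa had 40 fragments 18051 bp away, Areg and Ereg shared a summit of 50 fragments, and the feedback inhibitor gene Errfi1 held 28 inside the gene. Hippo pathway genes had 6 of 18 and 3. The effector gene Yap1 held 22 fragments in the deleted library, its target gene Ccn2 40 at 4736 bp, and Tead1, the DNA-binding partner, was in both, its region inside the gene holding 53 and 39 fragments (ratio 0.902, interval 0.585 to 1.4). Sav1, a scaffold of the inhibitory kinases, had 31 fragments in wildtype alone. Fgf, Bmp and Hedgehog genes had 3 of 25 in the deleted library (Dusp6, Fgfr2 and Bmpr2) and 0 in wildtype, close to the share of all genes.

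Lists for other uses of Sox2, for general functions and for other cells were read the same way. Pluripotency genes had 3 of 16 and 2 members. Of these, Dppa3 had 92 and 26 fragments at the same region, 27741 bp away inside another gene. Zfp42 had 47 and 20 at the same region (ratio 1.56, interval 0.906 to 2.78). Nanog had 38 fragments 44301 bp away, inside another gene, in the deleted library alone. Of the neural list, Fabp7, a lipid carrier of radial glia, was the 1 member of 16, with 50 fragments in the deleted library. Cell cycle genes had 1 of 20 in the deleted library and 3 in wildtype. Rb1, the retinoblastoma gene, held 109 and 49 fragments at the same region (1.48, 1.04 to 2.11). Mycn and Cdk6 had 27 and 12 fragments in wildtype and no deleted-library summit, and the ectopic Sox2 list also had a summit within 50 kb of Mycn. Housekeeping genes, kept as a comparison, had 4 of 16 (25%) and 1, close to the 5 of 16 (31.2%) of the basal factors and of the cornified envelope. Within 10 kb, 3 of the 16 housekeeping genes (18.8%) had a deleted-library summit, beside 4 of the 16 basal factors, 5 of 17 desmosomal genes, 1 of 11 keratins, 5 of 21 Notch, 5 of 28 Wnt, 3 of 12 Egf receptor and 5 of 18 Hippo genes. Both libraries had a summit at one housekeeping gene, Tbp (58 and 24 fragments, ratio 1.60, interval 0.981 to 2.70). Immune, endothelial and mesenchymal markers had 1 member each in the deleted library, of 14, 12 and 14 genes, namely Cd68, Vwf and Dcn, and in wildtype 0, 1 (Pecam1) and 0. The Cd68 summit was also that of Sox15.

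Across chromosomes the deleted library was uneven. Chromosome 19 held 140 summits, 2.29 per Mb, the highest density, and chromosome 10 was next with 1.62. Wildtype had 15 on chromosome 19, 0.245 per Mb, and its densest was chromosome 13 with 0.349. The ratio of summit counts between libraries ranged over the autosomes from 2.91 on chromosome 4 to 9.33 on chromosome 19. The median control background at chromosome 19 summits was 3 in both libraries, against 2 on the other autosomes in both, and its part in the count was not tested. Anxa1, Ahnak, Scgb1a1, Aldh1a1, Rfx3, Tcf7l2, Col17a1, Myof and Btrc lie on this chromosome.

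**Figure D4:**
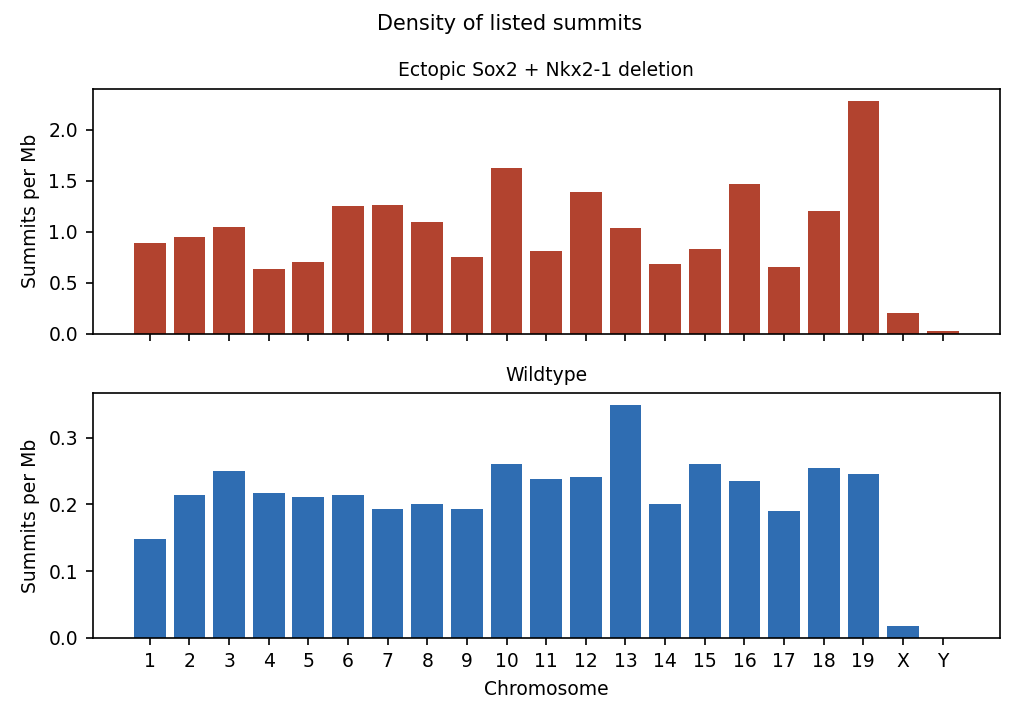
Listed summits per Mb (vertical axes, each with its own scale) on each chromosome (horizontal axis) in the deleted library and in wildtype. Chromosome 19 stands highest in the deleted library with 2.29 per Mb, and chromosome 13 in wildtype with 0.349.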

How the data were processed

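Sox2 ChIP-seq peak lists of 2 libraries were compared, 1 per side, and the other libraries of the series (6 of input or IgG) were not analysed here. The submitters' processing notes name Bowtie2 2.2.9, SAMtools 1.4, MACS2 2.1.1, HOMER 4.8.3 and mm10. Which control, cut-off and duplicate removal the calling used is not given in the sources used here. For each summit the authors deposited a score, a fold ratio over local control, −log10 p and −log10 q, with region and summit positions counted from 0 (printed from 1). The score was not used in any result.

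ChIP fragments and control background at each summit were solved from the deposited fold, which MACS2 forms with a pseudocount of 1, and the deposited −log10 p, within a tolerance of 0.02 of whole fragments. The solution was unique at 99.8% of deleted-library and 100% of wildtype summits. The solver was tested on data simulated under its own model, with control backgrounds in coarser steps than the 0.02 it allowed. That test therefore does not check the model itself. Depth is the genome background divided by the ChIP scale (0.423 and 0.741). Summit ratios were scaled by relative depth and carry an exact conditional binomial interval. Shares have exact Clopper-Pearson intervals. Genes, promoters and miRNAs came from RefSeq tables of GRCm38.p6, the promoter table was used without chromosome 18, and all 382 list entries matched a gene. Alternatives were other q thresholds, overlap rules, gene windows and scalings.

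Named genes were the nearest genes of the 12 one-sided summits of largest fold in each direction, of the 12 shared regions of largest summed −log10 q and of the 5 highest and 5 lowest ratios, with Trp63, up to 4 members per list by −log10 q, and genes with a summit in their promoter window. A few genes that this rule names are not reported here. Further list members, the genes with several summits and the hairpins were added after their values were seen. The comparison, members and lists were chosen with earlier results of these data known. Python 3.11.15, NumPy 2.4.6, pandas 2.3.3, SciPy 1.17.1 and Matplotlib 3.10.9 were used.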

Additional observations from a re-analysis of the deposited data

How the results depend on the processing

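With a −log10 q of at least 5, the lists held 1616 deleted-library and 327 wildtype summits, and the overlap was 8.61% of deleted-library and 42.5% of wildtype regions with both lists so limited. With the deleted list alone limited, a choice made after seeing the data, it was 13.2%. Overlap by 50% of both regions, by summits within 100 bp or without chromosome 19 moved neither share beyond its interval. Without depth scaling the median ratio at shared regions was 2.00, with 137 regions at least 2-fold higher and 0 at least 2-fold lower. At a −log10 q of at least 5 in both lists, 13 were at least 2-fold higher and 0 lower. Subtracting the control background left the median at 1.35 and the counts at 41 and 1. Gene ends taken as 5 kb held 14.2% of deleted-library and 12.7% of wildtype summits. Of the 377 different genes on the lists, 91 were near a deleted-library summit, beside 13.1% of all protein-coding genes. Within 10 kb there were 50, beside 6.47% of all, and at a −log10 q of at least 5 there were 58, beside 8.83%. Near a wildtype summit were 27, beside 2.85% of all, and 12 within 10 kb, beside 1.37%. No paired analysis was possible because each condition has 1 library and the labels carry no replicate numbers. A summit of the median 24 wildtype fragments rests on few counts, so single ratios are imprecise.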
